A study of Macaca mulatta with 64 samples.

Results

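In the prefrontal cortex (PFC) of rhesus macaques, 10- and 20-yr-old libraries listed CAGE tags for fewer genes on average than 1- and 4-yr-old libraries. No single gene passed the test of a difference between these age groups after adjustment. The 8 PFC libraries were chosen by region and age from the 64 libraries of the series, which cover 8 brain regions, 4 ages and both sexes with 1 library for each combination. The 10-20 yr group held the libraries of 10-yr-old females (10F), 10-yr-old males (10M), 20-yr-old females (20F) and 20-yr-old males (20M). The 1-4 yr group held those of 1-yr-old females (1F), 1-yr-old males (1M), 4-yr-old females (4F) and 4-yr-old males (4M). The animals were healthy and socially housed, with no genotype or treatment given, and the study had 2 animals of each age and sex, sampled in every region. That the RNA of such a pair was pooled is stated for the RNA-seq libraries of the same samples, and is taken to hold here. The 4 libraries of a group therefore differ in age and sex as well as in the animals, and p-values measure the spread between such libraries. Of 13269 genes with a tag cluster in the series, 7326 had one in PFC, and 2415 of these reached 1 TPM in at least 4 of the 8 libraries and were tested.

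CAGE (cap analysis of gene expression) aims to read the capped 5′ ends of mRNAs. Each tag is taken to mark where transcription of a molecule began. Tags that start close together form a tag cluster (TC), and the TPM of a TC is its number of tags scaled to the size of the library. The PFC is the association cortex behind working memory and planning. In primates its myelination and the pruning of its synapses go on long after birth, and its pyramidal neurons, which use glutamate, lose spines with age. The TPM of a gene is summed over TCs anywhere in its gene model, so it does not measure the annotated promoter alone. Whether TCs far inside a gene model are true starts of transcription was not tested. The comparison asks which genes differ in summed TPM between mature or old animals and juvenile or adolescent ones.

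The number of genes with any listed TC was 1698, 2801, 1654 and 2076 in 10F, 10M, 20F and 20M, against 3363, 4942, 2963 and 2534 in 1F, 1M, 4F and 4M. The means were 2057 ± 531 genes at 10-20 yr and 3450 ± 1050 genes at 1-4 yr (SD, n = 4 each). The ranges met because 10M listed more genes than 4M, and a two-sided exact permutation test over the libraries gave p = 0.0571 (0.1 after adjustment over 7 library measures, with 0.0286 the smallest p that 70 arrangements allow). The number of TCs followed the same order, with 2380 to 4517 at 10-20 yr and 4048 to 10765 at 1-4 yr (exact permutation p = 0.0571). The listed genes with more than 1 TC made up 25.8% to 33.8% at 10-20 yr and 32.1% to 45.8% at 1-4 yr.

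The 20 genes with the most TPM in each library took 33.84%, 32.02%, 37.00% and 35.59% of the listed TPM in 10F, 10M, 20F and 20M. In 1F, 1M, 4F and 4M they took 29.65%, 29.88%, 31.57% and 30.35%. This share was the 1 library measure whose groups did not overlap (exact permutation p = 0.0286, 0.1 after adjustment). By the steps between low values, 1 tag was worth 0.223 to 0.253 TPM in 7 of the libraries and 0.662 TPM in 20F, which by this measure was the least deeply sequenced. The mean difference in listed genes was -1393, and it was -1259 without 20F and -896 without 1M. The 10-20 yr group also listed fewer genes on average in the parietal cortex (PC), with a difference of -1286 genes, and in the temporal cortex, posterior cingulate cortex (PCC), hippocampal CA1 and cerebellar cortex (CB). In the dentate gyrus (DG) and occipital cortex (OC) it listed more, with differences of 548 and 531 genes. Set against the mean of the other 7 regions of the same animals, the PFC difference in listed genes gave an exact permutation p of 0.143.

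**Figure D1:**
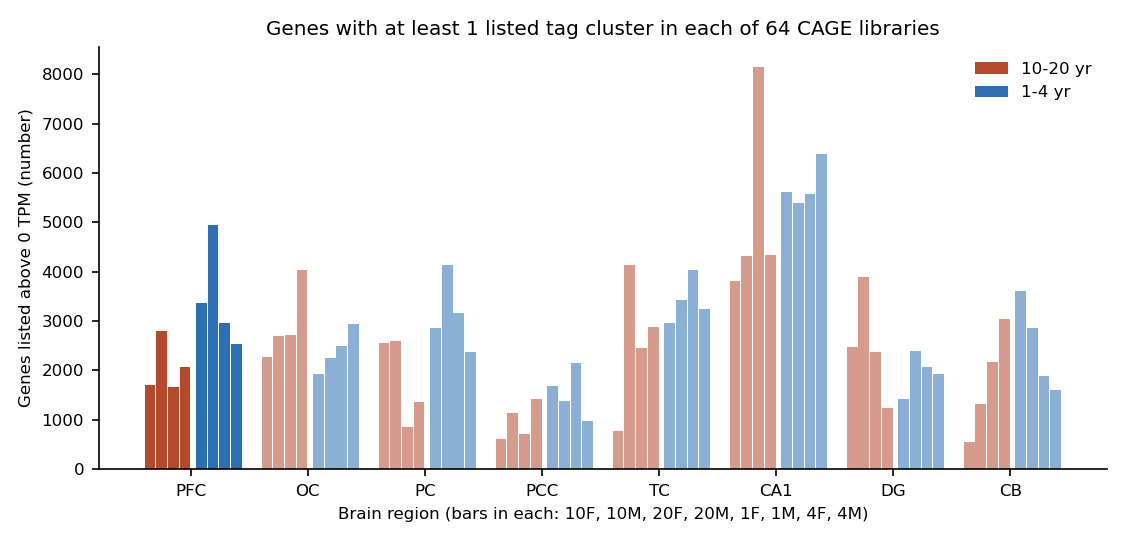
Number of genes with a listed tag cluster in each of the 64 libraries, by brain region, with the 4 libraries of 10- and 20-yr-old animals (red) left of the 4 libraries of 1- and 4-yr-old animals (blue). In PFC the 10-20 yr libraries listed 1654 to 2801 genes and the 1-4 yr libraries 2534 to 4942, while in DG and OC the 10-20 yr group listed more genes on average.

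None of the 2415 tested genes was called at an adjusted p under 0.05 by limma (0.0%), where 29 genes were higher (1.2%) and 238 lower (9.86%) at 10-20 yr with an unadjusted p under 0.05. Of the 238 lower genes, 160 were at 0 in at least 3 of the 4 libraries at 10-20 yr and 48 in all 4. Those 48 passed the filter only through the 1-4 yr group. The main TC lay within 100 nt of the annotated start in 26.05% of the 238 lower genes and 68.97% of the 29 higher genes. Among all tested genes it did so in 39.25%. The smallest adjusted p was 0.0653, shared by 10 genes. The median difference in log2(TPM + 1) over all tested genes was -0.98, and after quantile normalization, which gives every library the same distribution, it was -0.05. Differences below are on the log2(TPM + 1) scale, 10-20 yr minus 1-4 yr, and are to be read against that median. In 51 of the tested genes all 4 libraries of the 10-20 yr group were listed at 0, and in 1 gene all 4 libraries of the 1-4 yr group were. The 500 genes listed in all 8 libraries had a median difference of 0.01, and genes listed in 4, 5, 6 and 7 libraries had medians of -1.37, -1.45, -1.55 and -1.39. Genes common to all cells were also listed at 0, so a 0 says here only that no TC was listed. Of 51 ribosomal protein genes seen in PFC, the 10-20 yr libraries listed 18 to 23 and the 1-4 yr libraries 23 to 43.

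The values of the 2 groups did not overlap in 25 genes that were higher (1.04%) and 134 genes that were lower (5.55%) at 10-20 yr. Of the 134 lower genes 51 were at 0 in all 10-20 yr libraries, and of the 25 higher genes 21 were listed in all 8 libraries. The 12 named genes of each direction with the smallest p are described next, and none of them passed the threshold.

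Among the higher genes, EDF1, a bridging coactivator of transcription, had 2325, 974, 2164 and 980 TPM in 10F, 10M, 20F and 20M, against 13.9, 8.37, 1.68 and 593 TPM in 1F, 1M, 4F and 4M. Its difference was 6.09 (SE 1.67, adjusted p = 0.192), and 4M stood apart from the other 1-4 yr libraries. Nearly all of its TPM (99.8%) lay within 500 nt of the annotated start on chromosome 15, from 1391500 to 1395801 on the plus strand of MMUL 1.0, with the main TC 57 nt upstream of it. POLR2J, a subunit of RNA polymerase II, had 2535, 2137, 802 and 2957 TPM at 10-20 yr, against 101, 37.8, 290 and 265 TPM at 1-4 yr. Its means were 2108 ± 933 TPM at 10-20 yr and 173.6 ± 123.3 TPM at 1-4 yr (SD, n = 4 each), a difference of 3.84 (SE 1.25, adjusted p = 0.272). The median difference of all genes has the opposite sign in both cases.

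ACACA, the acetyl-CoA carboxylase that starts fatty acid synthesis, had 1.71, 57.8, 3.97 and 195 TPM at 10-20 yr and was listed at 0 in all 4 libraries at 1-4 yr. It passed the filter only through the 10-20 yr group and so had to differ, and no test is read from it. Its main TC lay far inside the gene model, 294585 nt from the annotated start. CHCHD6, of the complex that shapes mitochondrial cristae, had 47.8, 131, 337 and 342 TPM at 10-20 yr, against 19.8, 6.83, 6.0 and 34.7 TPM at 1-4 yr. MRPL11, a mitochondrial ribosomal protein, had 473 to 1041 TPM at 10-20 yr, against 54.3 to 340 TPM at 1-4 yr.

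RARRES2 encodes the adipokine chemerin and had 433, 465, 884 and 441 TPM at 10-20 yr, against 6.34, 24.6, 152 and 138 TPM at 1-4 yr. WBP4, a splicing factor, was even across the 10-20 yr libraries at 475 ± 33.0 TPM and spread over 119 ± 137 TPM at 1-4 yr (SD, n = 4 each), where 4F alone reached 323 TPM. NICOL1, a secreted factor, had 633 to 3713 TPM at 10-20 yr, against 56.2 to 457 TPM at 1-4 yr. AP2M1, the clathrin adaptor subunit that binds cargo at the plasma membrane and retrieves synaptic vesicles, had 331 to 1120 TPM at 10-20 yr, against 13.7 to 194 TPM at 1-4 yr. TSC2, which restrains mTOR signalling, had 204 to 511 TPM at 10-20 yr, against 14.4 to 198 TPM at 1-4 yr. The repressor CIC had 35.1 to 207 TPM at 10-20 yr, against 6.34 to 22.2 TPM at 1-4 yr. DTD1, which clears tRNAs of wrongly attached D-amino acids, had 122 to 335 TPM at 10-20 yr, against 96.6 and 71.0 TPM in 1F and 4F and 0 in 1M and 4M. For these 9 genes from CHCHD6 to DTD1 the differences lay between 2.16 and 4.38.

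**Figure D2:**
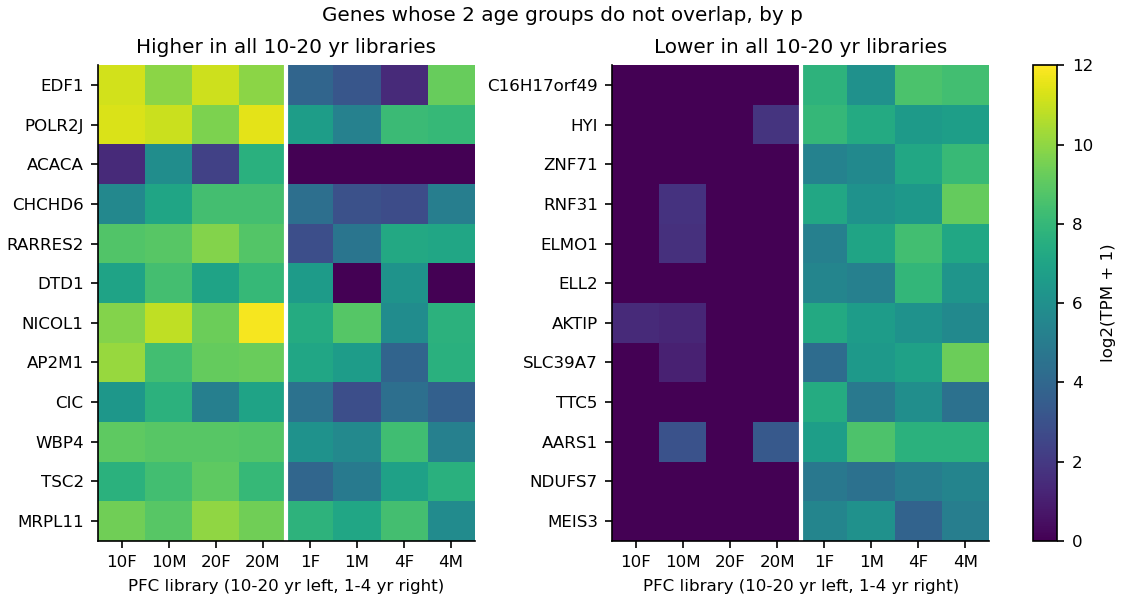
log2(TPM + 1) of the 12 named genes per direction with the smallest p among those whose groups do not overlap, in the 8 PFC libraries, with the 10-20 yr libraries left of the 1-4 yr libraries. The higher genes (left panel) were mostly listed on both sides, while the lower genes (right panel) were at or near 0 in all 4 libraries of the 10-20 yr group.

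Of the 12 named lower genes, 6 were listed at 0 in all 4 libraries at 10-20 yr. Such genes passed the filter only through the 1-4 yr group and so had to differ, and no test is read from them. C16H17orf49 was at 0 in all 4 libraries at 10-20 yr, against 215, 65.9, 384 and 328 TPM in 1F, 1M, 4F and 4M. It lies on the plus strand of chromosome 16, from 6725552 to 6730413, and its main TC was 32 nt upstream of the annotated start. HYI, hydroxypyruvate isomerase, had 2.45 TPM in 20M and 0 in the other 3 libraries at 10-20 yr, against 256, 163, 92.2 and 106 TPM at 1-4 yr, a difference of -6.71 (SE 1.18). Only 2.92% of the TPM of HYI lay within 500 nt of its annotated start.

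The zinc finger gene ZNF71 was at 0 in all 10-20 yr libraries, against 39.0, 51.5, 146 and 271 TPM in 1F, 1M, 4F and 4M. RNF31, the catalytic subunit of the ligase that builds linear ubiquitin chains, had 2.36 TPM in 10M and 0 in the other 10-20 yr libraries, against 144, 68.4, 83.5 and 564 TPM at 1-4 yr. ELMO1, which activates Rac during engulfment and migration, had 2.12 TPM in 10M and 0 elsewhere at 10-20 yr, against 36.4, 129, 324 and 143 TPM at 1-4 yr. ELL2, an elongation factor of RNA polymerase II, was at 0 at 10-20 yr, against 36.8 to 245 TPM at 1-4 yr. None of the TPM of RNF31, ELMO1 and ELL2 lay within 500 nt of the annotated start. Their main TCs were 13881, 445893 and 64807 nt into the gene models. HYI, RNF31 and ELMO1 were each listed in only 1 library at 10-20 yr, so that they too passed the filter through the 1-4 yr group.

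AKTIP had 1.70 and 1.41 TPM in 10F and 10M and 0 in 20F and 20M, against 50.7 to 154 TPM at 1-4 yr. SLC39A7, the zinc transporter of the endoplasmic reticulum, had 1.18 TPM in 10M only, against 17.8 to 637 TPM at 1-4 yr. AARS1, the alanyl-tRNA synthetase, had 7.07 and 9.14 TPM in 10M and 20M and 0 in 10F and 20F, against 106 to 400 TPM at 1-4 yr. Its main TC was 15727 nt into the gene model, with no TPM within 500 nt of the start. TTC5 was at 0 in all 10-20 yr libraries, against 21.0 to 166 TPM at 1-4 yr. So were NDUFS7, a core subunit of respiratory complex I, against 21.0 to 42.1 TPM at 1-4 yr, and the homeobox gene MEIS3, against 13.2 to 65.9 TPM at 1-4 yr.

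Neuronal genes were examined as lists that carry their markers. The count of each list below is to be read against the 9.86% of all tested genes that were lower and the 1.2% that were higher at an unadjusted p under 0.05, and its median against -0.98. Members listed in at most 1 library of a group passed the filter mainly through the other group, and no test is read from them. In bulk tissue, fewer cells of a type and less RNA per cell cannot be told apart. Of 13 markers of glutamatergic neurons, 9 were tested, and 2 were lower and 0 higher at 10-20 yr with an unadjusted p under 0.05, against 9.86% and 1.2% of all tested genes, with a median difference of -1.35. Their summed level was 551 to 929 TPM at 10-20 yr and 841 to 1231 TPM at 1-4 yr. SLC17A7, the vesicular glutamate transporter of cortical neurons, was at 0 in all 4 libraries at 10-20 yr, against 107, 5.08, 11.5 and 9.56 TPM at 1-4 yr. Its main TC was 6887 nt into the gene model, with no TPM within 500 nt of the start. NEUROD2, a transcription factor of excitatory neurons, had 0, 6.36, 94.7 and 3.34 TPM at 10-20 yr, against 63.9, 44.4, 232 and 95.4 TPM at 1-4 yr. NRGN encodes neurogranin, which holds calmodulin at the postsynapse, and was listed in every library with 87.8, 180, 105 and 207 TPM in 10F, 10M, 20F and 20M, against 653, 462, 341 and 468 TPM in 1F, 1M, 4F and 4M. Its means were 145 ± 57.7 TPM at 10-20 yr and 481 ± 129 TPM at 1-4 yr (SD, n = 4 each), and the groups did not overlap. The difference of -1.77 (SE 1.14, adjusted p = 0.605) did not pass the test, in which limma shares the spread across genes, most of them with libraries at 0.

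The synaptic vesicle list had 14 tested members of 29, 1 of them lower and 0 higher at an unadjusted p under 0.05 where 9.86% of all tested genes were lower, with a median of -1.45. That member was SLC17A7, which the glutamatergic list also holds and which passed the filter only through the 1-4 yr group. The summed level of the list was 6128 to 17050 TPM at 10-20 yr and 14720 to 23010 TPM at 1-4 yr. SYP, synaptophysin of the vesicle membrane, had 9825 and 14556 TPM at 1 yr, 5393 and 3520 TPM at 4 yr, 3880 and 3962 TPM at 10 yr and 1596 and 1757 TPM at 20 yr (female and male in each). The 2 libraries of 20 yr were thus below all others, and those of 1 yr above all others. The group difference was -1.49 (SE 1.18, adjusted p = 0.701). SNCB, β-synuclein, had 1570 to 7305 TPM at 10-20 yr and 4626 to 5891 TPM at 1-4 yr, so that the ranges overlapped. The postsynaptic list had 12 tested members of 26 with a median of -0.84, and SHANK3, a scaffold of the postsynaptic density, was its 1 member with an unadjusted p under 0.05. SHANK3 had 94.3 TPM in 10M and 0 in the other 10-20 yr libraries, against 35.5 to 36.0 TPM in 1F, 1M and 4F and 262 TPM in 4M. It too passed the filter through the 1-4 yr group.

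Genes of inhibitory neurons and of neuropeptides were sparse. Of 14 GABAergic markers, 2 were tested. SST, somatostatin of dendrite-targeting interneurons, had 10.5, 187, 0 and 0 TPM in 10F, 10M, 20F and 20M, against 77.1, 169, 75.4 and 424 TPM in 1F, 1M, 4F and 4M, a difference of -4.40 (SE 1.77, adjusted p = 0.407). Both 20-yr-old libraries were at 0, and 10M lay within the 1-4 yr range. CALB1, calbindin, had 577 and 429 TPM at 1 yr and 12.9 to 71.0 TPM in the 6 libraries of later ages. The neuropeptide list had a median of -3.01 over 11 tested members of 22, with 2 lower, SST and SCG2, and 0 higher at an unadjusted p under 0.05, against 9.86% lower among all tested genes. SCG2, a secretory granule protein, had 6.13 TPM in 10M only at 10-20 yr, against 24.2, 176, 111 and 0 TPM at 1-4 yr. It passed the filter mainly through the 1-4 yr group, and no test is read from it. CRH, corticotropin-releasing hormone, had 400, 0, 19.9 and 15.4 TPM at 10-20 yr, against 126 to 472 TPM at 1-4 yr.

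TESPA1, of deep-layer projection neurons, had 324, 38.0, 0 and 162 TPM at 10-20 yr, against 191 to 728 TPM at 1-4 yr. The groups overlapped, with 10F above 1M and 4F. In the same list of cortical layers and identity, SCRT1, a repressor of neurons, had 300, 155, 162 and 171 TPM at 10-20 yr, against 47.6, 173, 133 and 39.2 TPM at 1-4 yr, a difference of 1.21. MEF2C, an activity-dependent transcription factor, had 737, 2.13, 0 and 9.80 TPM at 10-20 yr, against 242, 67.4, 24.7 and 27.7 TPM at 1-4 yr, so that 10F alone was above the 1-4 yr range, and its log2 difference was -2.24 although its mean TPM was higher at 10-20 yr. NRSN1 and NGEF are among the genes that the study names. It named them for RNA-seq co-expression with modules of long noncoding RNAs, not for an age difference in PFC. The study used these animals, so the genes are not independent evidence. NRSN1, neurensin of neuronal vesicles, had 33.2, 19.4, 62.3 and 4.68 TPM at 10-20 yr, against 380, 219, 241 and 55.9 TPM at 1-4 yr, and only 20F among the 10-20 yr libraries passed the lowest 1-4 yr value. The difference was -3.04 (SE 1.30, adjusted p = 0.436). NGEF had 72.7, 1.18, 0 and 0 TPM at 10-20 yr, against 6.83, 30.7, 51.8 and 0 TPM at 1-4 yr.

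The immediate-early genes, which neurons switch on with activity, had 3 tested members of 20, with 2 lower at an unadjusted p under 0.05, against 9.86% lower among all tested genes. JUNB had 9.27, 140, 0 and 0 TPM at 10-20 yr, against 123.4, 89.5, 315 and 449 TPM at 1-4 yr. NR4A1 had 10.3 TPM in 10F only, against 34.4, 5.83, 61.2 and 172 TPM at 1-4 yr, so that it passed the filter through the 1-4 yr group. The remaining tested member, ARC, had 257, 46.7, 0 and 0 TPM at 10-20 yr, against 83.9, 101.6, 0 and 0 TPM at 1-4 yr, a difference of 0.12. Of 24 genes of immature neurons and axon growth, 8 were tested with a median of -0.06. STMN1, stathmin, had 3.54 TPM in 10M only at 10-20 yr, against 2.93, 175, 157 and 38.5 TPM at 1-4 yr. GAP43 of growth cones had 5114 to 9085 TPM in the 10-20 yr libraries and 7995 to 9508 TPM in 1F, 4F and 4M, while 1M had 3.04 TPM. The fitted difference of GAP43 of 2.57 rested on that library and was -0.19 without it.

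**Figure D3:**
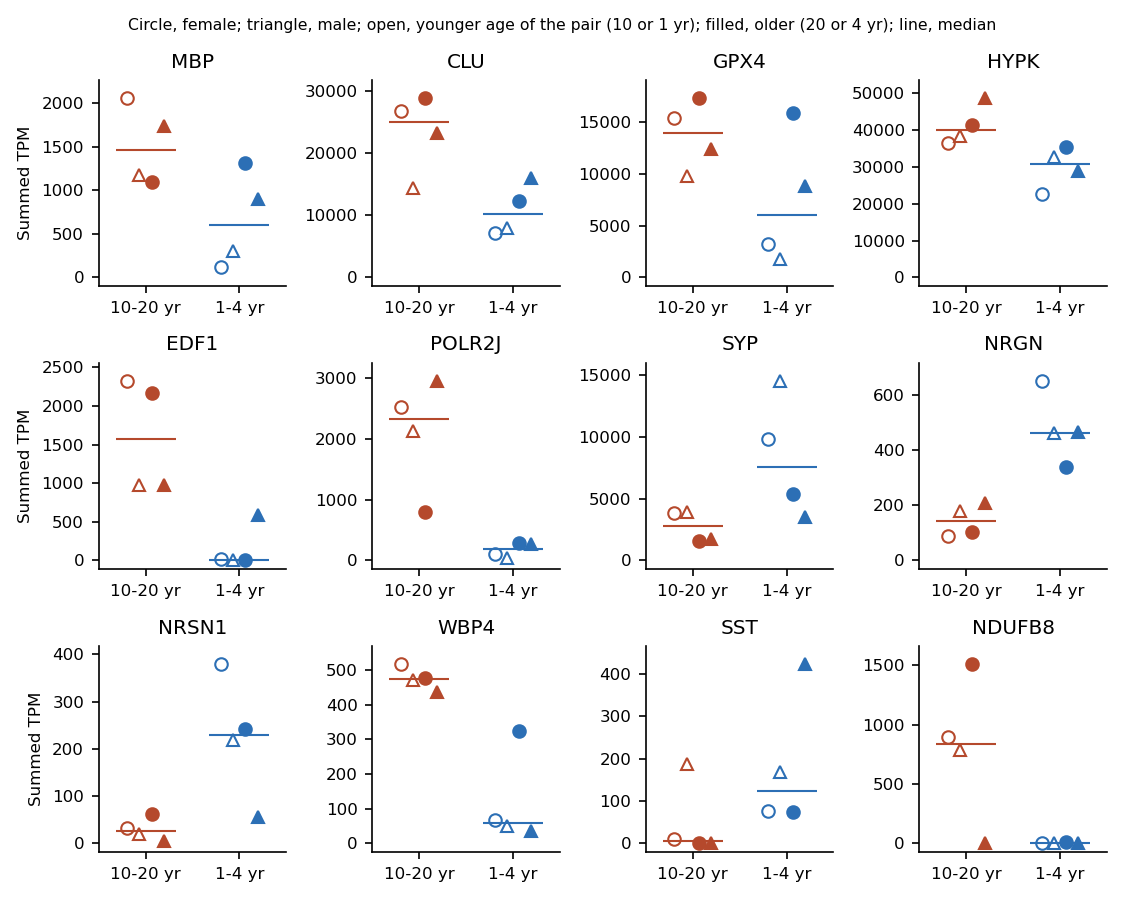
Summed TPM of 12 genes in the 8 PFC libraries, 10-20 yr (red) left of 1-4 yr (blue); circles are females, triangles males, open symbols the younger and filled symbols the older age of a group, and lines are medians. MBP, CLU and GPX4 were lowest at 1 yr, SYP was lowest at 20 yr, HYPK, EDF1, POLR2J, NRGN and WBP4 did not overlap between the groups, and NDUFB8 was at 0 in 20M and in 3 libraries of the 1-4 yr group.

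Glial genes did not share one direction. MBP, myelin basic protein, had 118 and 306 TPM at 1 yr, 1311 and 905 TPM at 4 yr, 2061 and 1175 TPM at 10 yr and 1098 and 1742 TPM at 20 yr. The 1-yr-old libraries were below all others, and the 4-yr-old female library lay within the range of 10-20 yr. The means were 1519 ± 462 TPM at 10-20 yr and 660 ± 549 TPM at 1-4 yr (SD, n = 4 each), a difference of 1.69 (SE 1.26, adjusted p = 0.683). None of the TPM of MBP lay within 500 nt of the annotated start of its gene model. The oligodendrocyte list had 4 tested members of 20 with a median of 0.30 and none with an unadjusted p under 0.05. CLU, clusterin, a chaperone secreted by astrocytes, had 26736, 14435, 28896 and 23250 TPM in 10F, 10M, 20F and 20M, against 7217, 8012, 12268 and 15962 TPM in 1F, 1M, 4F and 4M. Only 10M lay below the highest 1-4 yr library, and the difference was 1.13 (SE 1.14, adjusted p = 0.762). The 15 astrocyte markers had 8 tested members with a median of -0.83. ALDH1L1, a folate enzyme of astrocytes, had 8.29 TPM in 10F only at 10-20 yr, against 401, 253, 0 and 58.3 TPM at 1-4 yr. APOE, the main lipid carrier of the brain, had 31.2 to 758 TPM at 10-20 yr and 279 to 1185 TPM at 1-4 yr.

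Markers of microglia, of endothelium and of tissue that could be carried along were few. Of 12 microglial markers 2 were tested. CD68, of lysosomes, had 27.1, 133, 132 and 599 TPM at 10-20 yr, against 83.9, 58.1, 0 and 33.5 TPM at 1-4 yr, and C1QC had 96.9 TPM in 10M only at 10-20 yr, against 245, 46.4, 1.44 and 0 TPM at 1-4 yr. The glucose transporter SLC2A1 of brain endothelium had 7.95 TPM in 20F only, against 0, 115, 98.9 and 151 TPM at 1-4 yr, and BSG had 7.95 to 471 TPM at 10-20 yr and 204 to 587 TPM at 1-4 yr. The endothelial list as a whole summed to 15.9 to 471 TPM at 10-20 yr and 376 to 766 TPM at 1-4 yr. Of 7 blood markers only 1 had a TC anywhere in the series, so that their absence from PFC says little. Of 12 choroid plexus, ependymal and meningeal markers 5 had a TC in the series. They summed to at most 291 TPM at 10-20 yr, all of it COL1A1 in 20F, and 60.7 TPM at 1-4 yr. Of the cerebellar markers only CALB1, which cortical interneurons also use, was tested. The interferon-induced gene IFI6 had 3.77 TPM in 10M only at 10-20 yr, against 214, 0, 1.68 and 55.7 TPM at 1-4 yr.

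Of 49 genes of the nuclear-encoded respiratory chain, 33 were tested with a median of -0.75, and 1 was higher and 1 lower at an unadjusted p under 0.05. NDUFB8, an accessory subunit of complex I, had 893, 787 and 1512 TPM in 10F, 10M and 20F and 0 in 20M, against 0, 0, 10.8 and 0 TPM in 1F, 1M, 4F and 4M. NDUFS7 of the same complex was the lower one. ATP5MC2, of the rotor ring of ATP synthase, had 42.7, 122, 5.30 and 48.4 TPM at 10-20 yr, against 564, 247, 132 and 142 TPM at 1-4 yr, without overlap. The summed level of the list was 5558, 5794, 18840 and 8000 TPM in 10F, 10M, 20F and 20M, against 4854, 5043, 7068 and 6717 TPM in 1F, 1M, 4F and 4M, although the 10-20 yr libraries listed 19 to 30 members and the 1-4 yr libraries 28 to 36. Of 31 mitochondrially encoded genes 17 were tested, with 1 higher and 1 lower at an unadjusted p under 0.05, and their share of the listed TPM was 0.80% to 3.36% at 10-20 yr and 1.71% to 2.73% at 1-4 yr.

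Of the ribosomal protein genes 26 were tested with a median of -1.13, and 3 were lower and 0 higher at an unadjusted p under 0.05, a share near the 9.86% of all tested genes. RPL24 had 42.4 TPM in 20F and 0 in the other 10-20 yr libraries, against 39.5 to 177 TPM at 1-4 yr, and passed the filter through the 1-4 yr group. RPL38 had 1.32 TPM in 20F only, against 0, 36.8, 70.3 and 125 TPM at 1-4 yr, and it too passed mainly through that group. RPS3 had 0, 117, 0 and 41.7 TPM at 10-20 yr, against 114 to 207 TPM at 1-4 yr. Ribosomal protein genes have many processed copies, and tags were kept only where they mapped to 1 place. Of the proteasome genes 16 were tested with a median of -0.51, and PSMC4, an ATPase of its base, was at 0 at 10-20 yr, against 1.92 to 72.9 TPM at 1-4 yr. PSMC4 passed the filter only through the 1-4 yr group.

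In redox defence and glycolysis no member had an unadjusted p under 0.05, with 8 and 9 members tested and medians of -0.12 and -0.61. GPX4, which protects membranes from lipid peroxides, had 9845 to 17369 TPM at 10-20 yr, against 3206 and 1819 TPM at 1 yr and 15919 and 8841 TPM at 4 yr. GPX1 had 46.8, 1.65, 17.2 and 43.0 TPM at 10-20 yr, against 321, 23.1, 158 and 487 TPM at 1-4 yr. ENO2, the neuronal enolase, had 165 to 552 TPM at 10-20 yr, against 11.96 to 176 TPM at 1-4 yr, while PGAM1 had 63.9 TPM in 10F only, against 5.12 to 80.1 TPM at 1-4 yr.

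**Figure D4:**
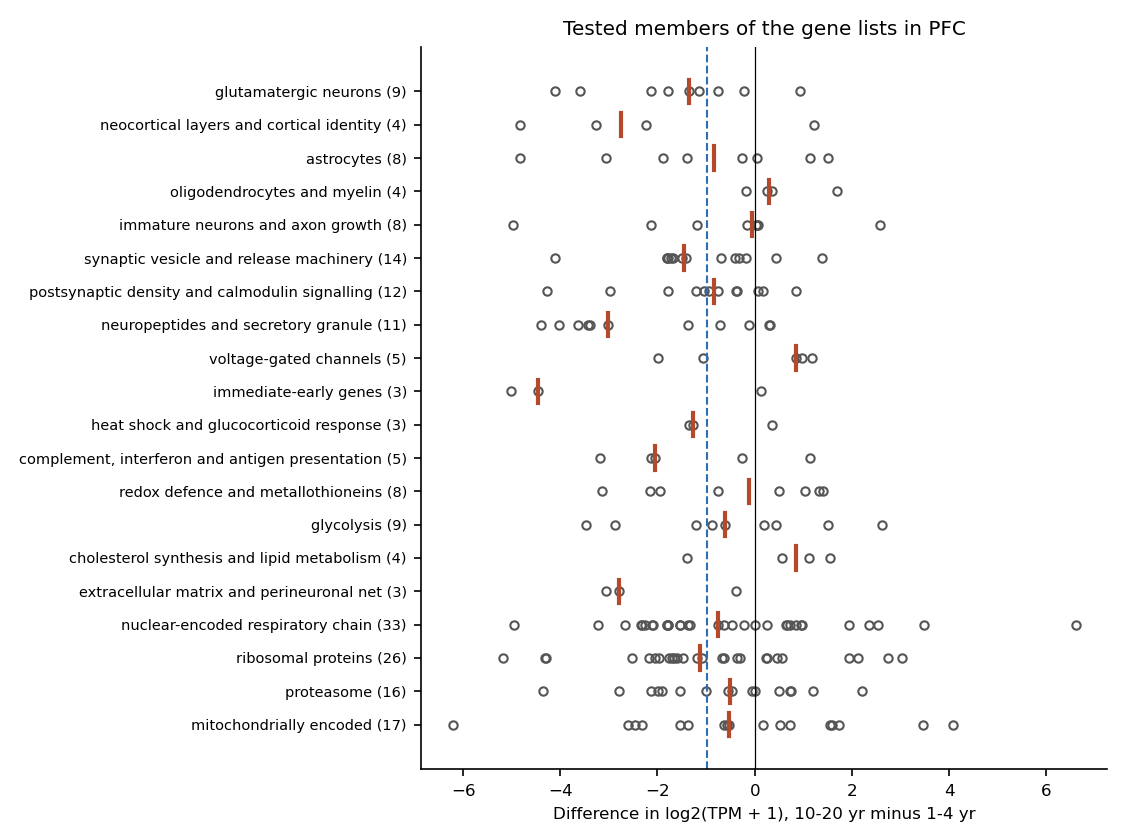
Difference in log2(TPM + 1), 10-20 yr minus 1-4 yr, of each tested member (open circles) of the gene lists with at least 3 tested members, with the list median (red bar), the median of all 2415 tested genes at -0.98 (dashed line) and the number tested in brackets. Most lists had members on both sides of 0.

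The genes with the highest mean level were listed in all 8 libraries. HYPK, a partner of the N-terminal acetyltransferase at the ribosome, had the highest mean level. It had 36544, 38442, 41199 and 48633 TPM in 10F, 10M, 20F and 20M, against 22580, 32658, 35217 and 28923 TPM in 1F, 1M, 4F and 4M. Its groups did not overlap, and the difference was 0.48 (SE 1.11, adjusted p = 0.940), which turned to -0.18 with quantile normalization. NEURL4, a centriolar protein, had 15086 to 26759 TPM at 10-20 yr and 10585 to 16084 TPM at 1-4 yr. ARL6IP4, a splicing regulator, had 8236 to 12248 TPM at 10-20 yr, against 3761 and 3783 TPM at 1 yr and 9321 and 9591 TPM at 4 yr. ASPHD1 and CA11, a carbonic anhydrase relative of the brain, had 8985 to 24462 and 7880 to 16746 TPM at 10-20 yr, and 12402 to 18892 and 10336 to 17840 TPM at 1-4 yr. Of all listed TPM, the part that lay at most 500 nt from the start of its gene model was 54.7% to 64.1% at 10-20 yr and 42.9% to 57.1% at 1-4 yr, and HYPK and NEURL4 had their main TCs 8231 and 14038 nt into their gene models.

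The steps between neighbouring ages gave 0 called genes each in limma. At an unadjusted p under 0.05, 4 yr against 1 yr had 43 genes higher (1.78%) and 80 lower (3.31%), 10 yr against 4 yr had 46 higher (1.9%) and 160 lower (6.63%), and 20 yr against 10 yr had 81 higher (3.35%) and 135 lower (5.59%). The median differences of these steps were -0.23, -0.49 and -0.33, and single libraries turned or removed them. The median of 4 against 1 yr was 0.24 without 4M, that of 10 against 4 yr was 0.07 without 10F, and that of 20 against 10 yr was 0 without 10M and -1.07 without 10F. The genes named for the steps were chosen after their values were seen, as the smallest p with a symbol. COX17, a copper chaperone of cytochrome oxidase, was at 0 in both libraries of 1 yr and had 343 and 395 TPM at 4 yr, 609 and 615 TPM at 10 yr and 173 and 507 TPM at 20 yr. RSPRY1 had 307 to 611 TPM in the 6 libraries of 1, 4 and 10 yr and was at 0 in both libraries of 20 yr (unadjusted p = 0.00042, adjusted p = 0.225). Neighbouring steps share libraries, and each has 2 libraries a side.

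The age difference in PFC was then set against the mean of the age differences in the other 7 regions, with the animals as a block. No gene was called (0.0%), the smallest adjusted p was 0.0547, and 33 genes were higher (1.37%) and 137 lower (5.67%) in PFC at an unadjusted p under 0.05. The median over all tested genes was -0.57. HYI differed by -7.24 from the other regions (SE 1.65). Its age difference there averaged 0.53 and ran from -3.02 in CB to 3.57 in DG. RNF31 differed by -7.12 and ELMO1 by -6.21. HYI, RNF31 and ELMO1 passed the filter through the 1-4 yr group of PFC, so no test is read from them. EDF1 differed by 5.00 (SE 2.36, adjusted p = 0.661), and its age difference ran from -7.35 in PC to 6.09 in PFC. POLR2J was higher at 10-20 yr by 2.26 on average in the other regions, with differences from -3.88 in DG to 8.05 in CB. The PFC minus other regions difference was 1.07 in MBP, 0.67 in CLU, -1.32 in SYP and -0.93 in NRGN, with adjusted p from 0.744 to 0.890. The genes were picked for their difference in PFC, and these values describe them only.

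**Figure D5:**
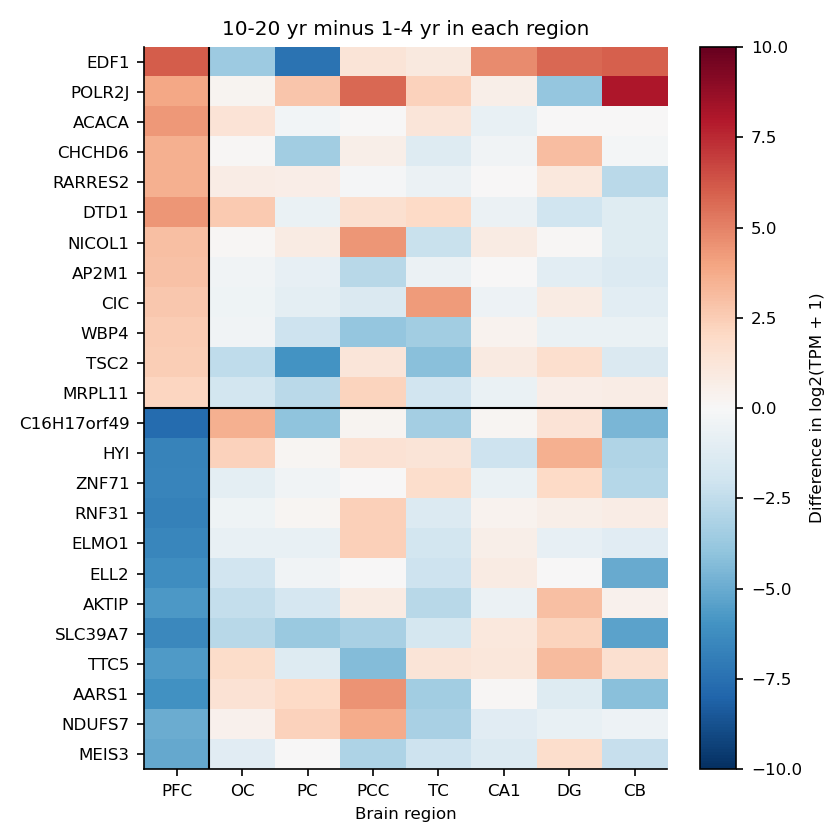
Difference in log2(TPM + 1), 10-20 yr minus 1-4 yr, of the 24 genes of the plot of non-overlapping genes in each of the 8 regions, with PFC in the first column, which was used to choose the genes. In the other regions the same genes had differences of both signs.

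The use of TCs within a gene was compared in the 164 genes with at least 2 tested TCs. None was called (0.0%) by limma's diffSplice, 10 had an unadjusted p under 0.05 (6.1%), and the smallest adjusted p was 0.215. The pair of genes described here was chosen after the values were seen. STMN4, a stathmin of neurons, had 3206, 0, 861 and 2115 TPM at its annotated start at 10-20 yr, against 0, 0, 0 and 1908 TPM at 1-4 yr. At a TC 20658 nt downstream it had 0, 106, 0 and 74.7 TPM at 10-20 yr, against 549, 784, 148 and 86.5 TPM at 1-4 yr (adjusted p = 0.461). RPL36AL had TCs 15 and 20 nt from its start. These positions lie less than 20 nt apart and are merged when such positions are joined. The authors joined start sites sample by sample, so libraries can list different positions of 1 cluster. A change of promoter is therefore not read from them. The first had 0, 213, 374 and 126 TPM at 10-20 yr, against 18.5, 0, 0 and 0 TPM at 1-4 yr, and the other had 1.71, 0, 0 and 0 TPM at 10-20 yr, against 0, 49.9, 166 and 101 TPM at 1-4 yr (adjusted p = 0.215). With positions less than 20 nt apart joined, 408 genes were tested and 0 called.

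The 10-20 yr libraries were no more alike than pairs across the groups. The 1-4 yr libraries had a higher median likeness, with a range that overlapped that of pairs across the groups. Over the 2415 tested genes, Pearson's r of log2(TPM + 1) was 0.355 to 0.373 in the 6 pairs within 10-20 yr, 0.386 to 0.491 in the 6 pairs within 1-4 yr and 0.325 to 0.401 in the 16 pairs between the groups, with medians of 0.36, 0.398 and 0.36. These are correlations across genes, which are not independent replicates. The highest r, 0.491, was that of 1F with 1M. Of the tested genes 495 were at 0 in 3 or 4 of the 10-20 yr libraries, against 27 in the 1-4 yr libraries. Whether the 1-4 yr libraries were more alike apart from this effect of the filter was not tested. A PFC library and those of other regions of the same animals had r of 0.286 to 0.457 at 10-20 yr and 0.350 to 0.473 at 1-4 yr.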

How the data were processed

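The authors made CAGE libraries of polyadenylated RNA, mapped the tags with TopHat2 to MMUL 1.0, kept uniquely mapped tags with at most 2 mismatches, kept start sites of at least 0.5 TPM and joined those less than 20 nt apart. The deposited values are RPM (tags scaled to the size of the library, written TPM) for each TC with its Ensembl gene. Here they were summed per gene, genes with at least 1 TPM in 4 of the 8 PFC libraries were kept, and log2(TPM + 1) was fitted with limma 3.58.1 in R 4.3.3, with Benjamini-Hochberg adjustment over all tested genes and a threshold of 0.05. The age steps used the same libraries, and the regional contrast used all 64 libraries with the animals as a block, since all regions came from the same animals. Library measures were compared by two-sided exact permutation over all 70 arrangements, computed with NumPy 2.4.6. TC use was tested with limma's diffSplice. The scripts were tested on simulated data.

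Named genes were the 12 per direction with the smallest p among those whose groups did not overlap and up to 3 per list. The 10 genes with the highest mean TPM and the genes the study names were added. Members and lists were chosen with earlier results of these data known. Symbols were found for 1831 of the 2415 genes. Depth was inferred from the step between low values. Sequences were not used here. Some results on single genes are not reported here.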

Additional observations from a re-analysis of the deposited data

Results flagged for a closer look

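Single libraries stood apart from the other 3 of their group in 8 of 86 groups of gene values without a 0, by Dixon's ratio of the gap to the range. Chance passes it in about 1 of 20 groups of normally distributed values. The ratio was taken on TPM without a log, and many of the genes were picked by their values. The rate is therefore no reference for the 8 groups. None of 14 groups of library measures did. In the 1-4 yr group, 4M was high in RNF31 (564 TPM), SLC39A7 (637 TPM), EDF1 (593 TPM) and SHANK3 (262 TPM). In the same group 1F was high in SLC17A7 (107 TPM), 4F was high in WBP4 (323 TPM) and 1M was low in GAP43 (3.04 TPM). In the 10-20 yr group 20F was high in RARRES2 (884 TPM). The part of the library or the animals in these values was not tested.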

How the results depend on the processing

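No gene was called in the comparison of 10-20 yr with 1-4 yr under limma, and this count was 19 (18 lower, 1 higher) with a pseudocount of 0.25 TPM, 20 with no filter, and, with settings chosen after seeing the data, 11 with each library scaled to its listed TPM and 1 (EDF1) with a trend and a pseudocount of 10 TPM. Leaving out each library gave 0 to 43 calls, the 43 (42 lower, 1 higher) without 10M. Without 20F it was 0 of 2263 genes. In the regional contrast the fit without the block of animals called 1 gene model, against 0 with the pairing kept, and leaving out an animal group gave 0 to 2 calls, the 2 without 10F. No paired analysis was possible because the 10-20 yr and 1-4 yr libraries of PFC come from different animals. TC use had 1 call without 20F and 0 to 4 calls over libraries left out, the 4 without 10M. Over libraries left out, the difference ran from -4194 to -1955 in listed TCs, from -11.1 to -6.54 percentage points in genes with several TCs, from 5.28 to 10.00 in TPM near starts, from -0.74 to 0.11 in mitochondrially encoded TPM, the positive value without 10F, and from 3.46 to 5.12 in the share of the 20 top genes. Quantile normalization turned NGEF to 0.025 and HYPK to -0.18. GAP43 ran from -0.19 (without 1M) to 3.54, and SNCB from -0.61 to 0.13 (without 20F). Steps with a library left out have an arm of 1, whose spread is assumed like the others. Tools for whole counts were not run, because the deposited values are not counts and whole tags were sought only among low values. The 4 libraries a side and the depth of 20F limit what could be seen.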
